A study of Mus musculus with 15 samples.

Results

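Th9 cultures were set against Th1 cultures after activation by plate-bound antibody (PBAB), across all genes of a mouse whole-genome expression array. The comparison used every array that the labels give to these 2 groups, 2 Th9 PBAB arrays and 2 Th1 PBAB arrays, which are 4 of the 15 arrays in the series. Both groups started from naive CD4+ T cells of the 3A9 strain, whose transgenic T cell receptor recognises hen egg lysozyme (HEL), and the clonotypic antibody 1G12 was used to sort them. Both were seeded at 250000 cells/ml on plates coated with 10 µg/ml anti-CD28 plus 1 µg/ml anti-CD3, with no antigen-presenting cells added. Th9 cultures received TGF-beta (1 ng/ml) with IL-4 (10 ng/ml), and Th1 cultures received anti-IL-4 (10 µg/ml) with IL-12 (10 ng/ml). RNA was taken on day 4, and 500 ng was amplified for each array. The same pair of cultures was also activated by HEL on irradiated (30 Gy) syngeneic splenocytes (HA), at 1 µg/ml HEL for Th9 and 2 µg/ml for Th1, with 2 arrays each, and those 4 arrays are set beside the PBAB comparison at the end. The labels call the replicates biological without naming animals or cultures, so the p-values measure the spread between these arrays. The ages of the mice were not given in the sources used here.

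Th1 cells are the interferon-gamma-producing helper T cells that develop under IL-12 and the transcription factor T-bet, and they arm macrophages against intracellular microbes. Th9 cells arise when IL-4 acts together with TGF-beta, make IL-9, and share much of their cytokine machinery with the Th2 cells that drive allergic and anti-helminth responses. The transcription factors PU.1 and IRF4 are both known to bind the Il9 locus in mouse Th9 cells.

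All values are log2 intensities as deposited, so a difference of 1 is a doubling on that scale. Differences are Th9 minus Th1, with the standard error of a model fitted to all 15 arrays. A gene is called higher or lower when its adjusted p is under 0.05 over the 15498 genes tested. A value near 5.07, the 40th percentile of the whole table, is close to the background of the array, and no fold is given where a group mean lies below it. With 2 arrays against 2, an exact permutation test of a single gene cannot go below p = 0.333, so each adjusted p rests on a spread shared with the other groups. In bulk RNA from cultures, a change in the share of cells that express a gene and a change in RNA per cell cannot be told apart.

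Of the 15498 genes, 334 were called (2.16%). Of these, 194 were higher in Th9 (1.25% of the genes tested) and 140 were lower (0.903%). At least a 2-fold difference was shown by 149 of the higher and 113 of the lower genes, at least 4-fold by 44 and 33, and at least 16-fold by 4 and 6, where 43 of the 334 have a group mean below 5.07 and so an uncertain size. The median difference over all genes was 0.02. With quantile normalization repeated, 166 genes were called higher and 163 lower, so the balance of higher and lower calls depended on the normalization. Arrays with the same replicate number deviated together from their group means, and with that number as a block 861 genes were called, 562 higher and 299 lower, including all 334. Without Th9 replicate 1, Th9 replicate 2, Th1 replicate 1 or Th1 replicate 2 the count was 154, 143, 123 or 134, and 92 of the 334 genes were called in all 4 of these fits. The 2 and 2 arrays did not overlap for 5779 genes (37.3%), so non-overlap alone is common in these data. Counts of called list members below stand beside 1.25% higher and 0.903% lower among all tested genes. With the block they stand beside 562 and 299 of 15498.

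**Figure D1:**
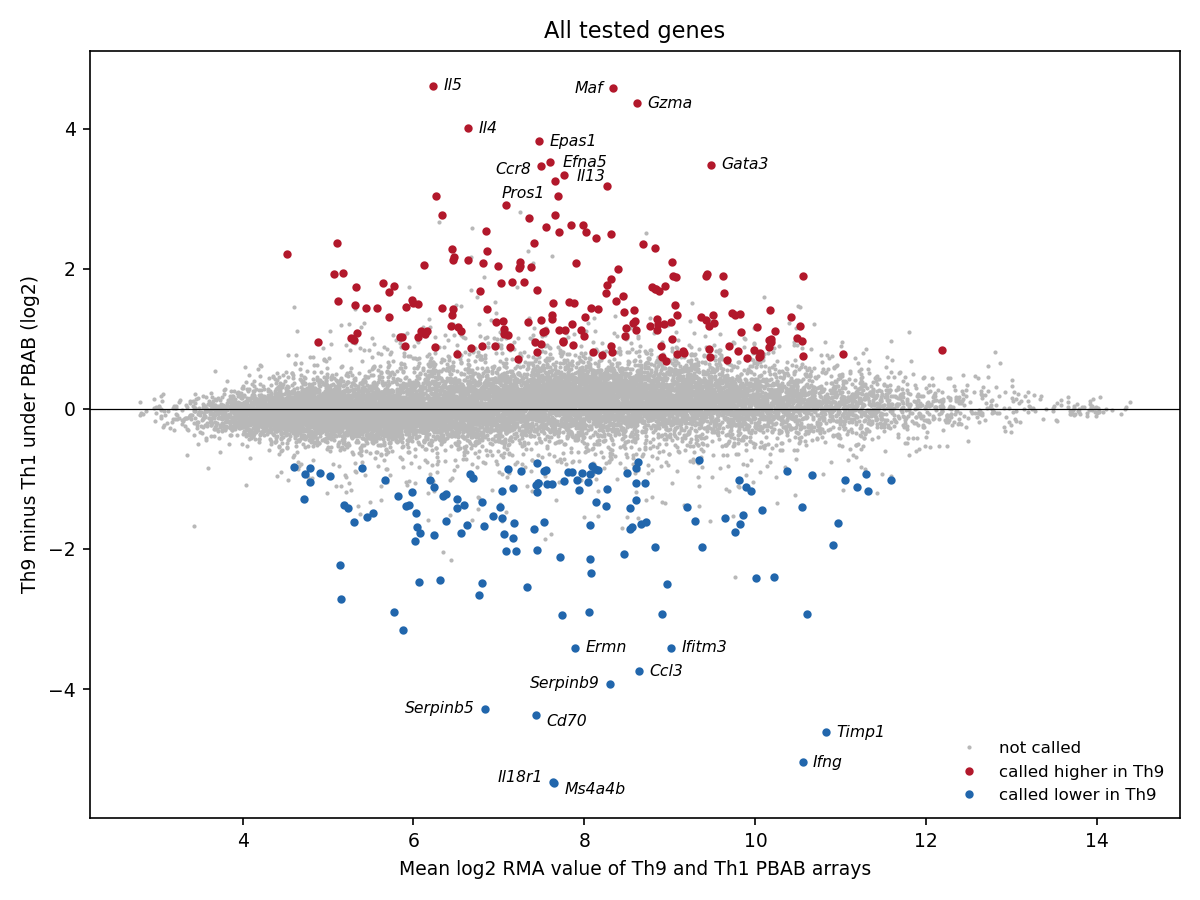
Difference of Th9 minus Th1 under PBAB (log2) for each of the 15498 tested genes, against the mean log2 RMA value of the 4 arrays. Red points are the 194 genes called higher in Th9, blue points the 140 called lower, and the 10 largest differences each way are named, from Il5 at 4.61 to Ms4a4b at -5.34.

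The cytokine that names the Th9 lineage was high in 1 of the 2 Th9 arrays. Il9 stood at 8.31 and 5.33 in the Th9 arrays and at 4.92 and 5.24 in the Th1 arrays. The groups did not overlap, but the second Th9 array was barely above the higher Th1 array, and the difference of 1.74 ± 0.80 was not called (adjusted p = 0.497). Without Th9 replicate 2 the remaining Th9 array gave a difference of 3.23 with adjusted p = 0.0433, where the lone array is assumed to vary like the other groups. The label Th9 thus stands here for a culture with IL-4 and TGF-beta, with clear Il9 signal in 1 of its 2 PBAB arrays. Elsewhere in the series, Il9 was 10.52 and 9.38 in Th17 PBAB arrays and 5.39 and 6.29 in Th9 HA arrays.

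**Figure D2:**
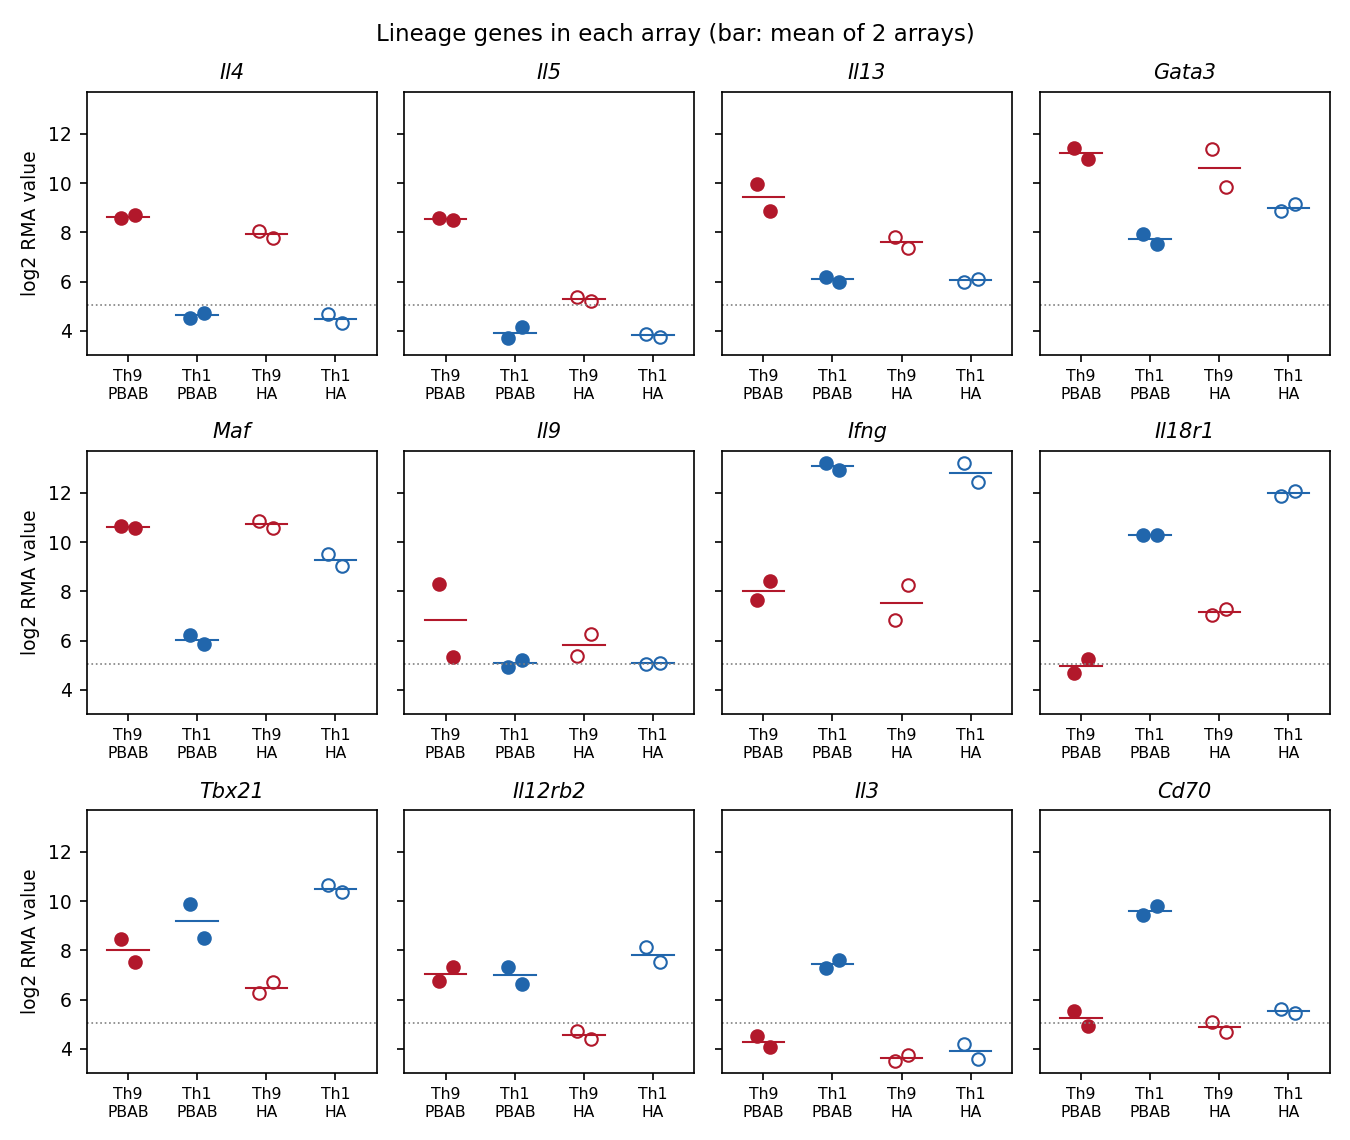
Log2 RMA values of 12 genes in each array, with Th9 in red and Th1 in blue, PBAB as filled and HA as open circles, and a bar at the mean of 2 arrays. The dotted line is the background level of 5.07. Il4, Il5, Il13, Gata3 and Maf separate the PBAB cultures upward and Ifng, Il18r1, Il3 and Cd70 downward, while Il9 is high in 1 Th9 PBAB array and Il12rb2 overlaps under PBAB.

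Among the 17 tested genes of the Th9 cytokine and its transcription factors, 3 were higher in Th9 and 1 was lower, with a median difference of 0.53 against 0.02 over all genes. The blocked fit called 5 and 2. Maf, the c-Maf factor that activates the Il4 gene, was 10.67 and 10.58 in Th9 against 6.22 and 5.87 in Th1. Its difference of 4.58 ± 0.27 is 23.9-fold (adjusted p = 1.40e-05), with the arrays of each culture close to each other. Gata3, the master factor of type 2 helper cells, was 11.44 and 10.99 in Th9 against 7.94 and 7.53 in Th1 (difference 3.48 ± 0.40, 11.2-fold, adjusted p = 0.00135). Batf, an AP-1 factor that works with IRF4, differed by 1.01 ± 0.22 (adjusted p = 0.0419). Id3, an inhibitor of E-protein factors, was lower by -1.69 ± 0.36 (adjusted p = 0.0430). The calls of Batf and Id3 were lost without any 1 of the 4 arrays, with adjusted p of 0.132 to 0.311 for Batf and 0.128 to 0.310 for Id3. Spi1, which encodes PU.1, was 6.0 and 6.27 in Th9 against 5.79 and 6.21 in Th1 and overlapped. Irf4 overlapped too, with 11.93 and 11.65 in Th9 against 11.88 and 11.73 in Th1. Foxo1, a factor of quiescent T cells, had 0.67 ± 0.18 (adjusted p = 0.126, and 0.0201 with the block).

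Type 2 cytokines and receptors were the clearest upward group. Of 18 tested members, 8 were higher in Th9 and 1 was lower, against 1.25% and 0.903% of all genes. The list median was 1.12. Il4, the cytokine that was also added to these cultures as protein, was 8.58 and 8.69 in Th9 against 4.55 and 4.72 in Th1 (difference 4.00 ± 0.18, adjusted p = 2.71e-06). Il5, which drives eosinophil production, was 8.59 and 8.49 in Th9 against 3.70 and 4.15 in Th1 (4.61 ± 0.24, adjusted p = 9.29e-06). In both genes the Th1 arrays lay below 5.07 and the Th9 arrays far above it. Il13, which acts on airway epithelium and smooth muscle, was 9.98 and 8.88 in Th9 against 6.19 and 6.0 in Th1 (3.34 ± 0.36, 10.1-fold, adjusted p = 9.60e-04). The Th9 arrays of Il13 spread by more than a full unit, and both remained well above Th1. Ccr8 and Ccr4, chemokine receptors of type 2 and skin-homing T cells, were higher by 3.47 ± 0.26 (11.1-fold) and 2.04 ± 0.21 (4.11-fold). Plcd1, a phospholipase C, was higher by 2.53 ± 0.44 (adjusted p = 0.0156) and Rnf128, the E3 ligase GRAIL, by 2.05 ± 0.41 (adjusted p = 0.0327), both named after their values were seen. Both calls were lost without any 1 array, with adjusted p of 0.0813 to 0.121 for Plcd1 and 0.150 to 0.209 for Rnf128. The exception was Il3, a growth factor for mast cells and basophils, at 4.53 and 4.07 in Th9 against 7.30 and 7.63 in Th1 (-3.16 ± 0.25, adjusted p = 1.53e-04). The receptor chain Il4ra had 9.89 and 9.96 in Th9 against 8.97 and 8.80 in Th1, a difference of 1.04 ± 0.26 that missed the threshold (adjusted p = 0.0930) and passed it with the block (0.00746).

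The promoters of the cytokine genes with opposed changes are shown because Il4, Il5 and Il13 share Gata3 as a known regulator and Ifng is the main gene in the other direction. Each is the RefSeq window of 300 bases (GRCm38.p6), 250 before and 50 after the transcription start, on the strand of the gene, and for Il4 it is the more upstream of 2 annotated starts. Capitals mark a GATA word, which is GATA with adenine or thymine before it and adenine or guanine after it, or a STAT word, which is TTC followed by GAA after a gap of 4 or 3 bases, each on either strand. No words overlap in these windows.
Il4 (chr11:53618616-53618915, minus strand): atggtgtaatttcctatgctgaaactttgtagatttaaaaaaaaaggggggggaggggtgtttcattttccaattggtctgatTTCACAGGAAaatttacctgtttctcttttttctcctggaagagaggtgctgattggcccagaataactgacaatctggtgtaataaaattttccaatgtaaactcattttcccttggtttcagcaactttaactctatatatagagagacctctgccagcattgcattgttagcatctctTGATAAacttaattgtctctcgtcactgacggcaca
Il5 (chr11:53720544-53720843, plus strand): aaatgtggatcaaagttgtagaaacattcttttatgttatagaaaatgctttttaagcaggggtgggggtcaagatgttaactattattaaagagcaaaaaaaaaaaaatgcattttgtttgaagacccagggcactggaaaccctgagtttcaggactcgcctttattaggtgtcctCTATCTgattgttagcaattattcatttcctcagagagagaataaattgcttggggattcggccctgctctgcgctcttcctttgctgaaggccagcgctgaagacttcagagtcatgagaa
Il13 (chr11:53634653-53634952, minus strand): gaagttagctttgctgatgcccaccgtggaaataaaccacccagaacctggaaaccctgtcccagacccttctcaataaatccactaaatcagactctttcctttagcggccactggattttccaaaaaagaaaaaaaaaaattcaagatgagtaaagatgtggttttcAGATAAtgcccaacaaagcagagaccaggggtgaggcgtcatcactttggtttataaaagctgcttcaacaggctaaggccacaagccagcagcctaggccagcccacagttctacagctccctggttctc
Ifng (chr10:118440796-118441095, plus strand): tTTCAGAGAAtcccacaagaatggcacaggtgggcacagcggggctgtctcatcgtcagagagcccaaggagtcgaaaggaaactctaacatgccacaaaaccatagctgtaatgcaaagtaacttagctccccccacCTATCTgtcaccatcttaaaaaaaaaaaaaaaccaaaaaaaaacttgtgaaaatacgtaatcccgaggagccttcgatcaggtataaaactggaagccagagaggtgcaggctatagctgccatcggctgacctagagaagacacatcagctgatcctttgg
Each of the 4 windows held 1 GATA word, which lay 72 bases before the start in Il5, 81 in Il13 and 112 in Ifng, and after the start in Il4. The Il4 window also held 1 STAT word with a 4-base gap, 167 bases before the start, and the Ifng window 1 with a 3-base gap. Such words are common. A GATA word was found in 21.6% of 208 windows of the genes called higher, in 23.3% of 129 windows of those called lower and in 29.8% of all 32851 windows. The STAT word with a 4-base gap was found in 9.62%, 9.30% and 6.95% of these windows, and that with a 3-base gap in 7.69%, 6.20% and 8.30%. The windows are a description of sequence and do not show binding.

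Il4, Il13 and Il5 are neighbours on mouse chromosome 11, and the gene between them, Rad50, a subunit of the MRN DNA-repair complex, was higher in Th9 as well. Rad50, chosen after its values were seen, was 10.62 and 10.50 in Th9 against 8.68 and 8.66 in Th1 (1.89 ± 0.17, 3.71-fold, adjusted p = 3.11e-04). In RefSeq order, the 4 tested genes Il4, Il13, Rad50 and Il5 were all called higher, while Kif3a on one side had 0.98 ± 0.24 (adjusted p = 0.0844) and Irf1 on the other 0.01 ± 0.16. Kif3a was called higher with the block (adjusted p = 0.0134) and under HA (1.93, adjusted p = 8.78e-04), and Fnip1, past Acsl6, was called lower with the block only (-0.76 ± 0.39, adjusted p = 0.559, and 0.0325 with the block). Further along the same chromosome, Csf2 was at -1.02 ± 0.40 and was not called, and the adjacent Il3 and Acsl6 were called lower. Acsl6, an acyl-CoA synthetase likewise chosen after its values were seen, had 5.46 and 4.72 in Th9 against 8.14 and 6.91 in Th1 (-2.44 ± 0.45, adjusted p = 0.0201), and its adjusted p was 0.173 without Th9 replicate 2 and 0.162 without Th1 replicate 1. Across the stretch of 17 tested genes, 4 were higher and 2 lower, against 2.16% of all genes called. The stretch was chosen around these called genes, so its counts are a description and cannot serve as a test against that share.

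**Figure D3:**
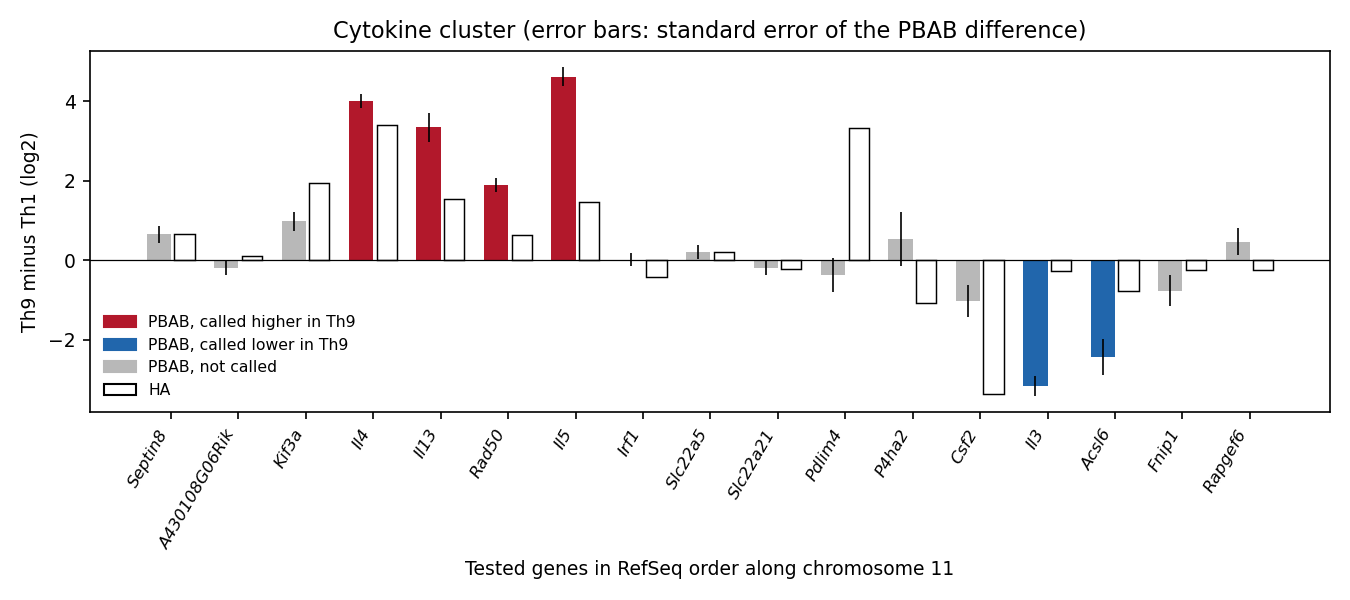
Differences of Th9 minus Th1 (log2) for 17 tested genes in RefSeq order along chromosome 11. Filled bars are PBAB with their standard error, red where called higher and blue where called lower, and open bars are HA. Il4, Il13, Rad50 and Il5 stand side by side with positive PBAB differences, and Il3 and Acsl6 with negative ones.

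Other called genes also lay side by side. Neighbours here are the tested genes directly before and after a gene in chromosome order, at any distance. Of 333 called genes that could be placed, 53 (15.9%) had at least 1 called neighbour, and 49 of these had one in the same direction. Among the 15044 uncalled genes, 598 (3.98%) had a called neighbour. The 53 genes formed 23 runs, of which 21 ran in 1 direction. The longest run was 5 genes of the Ms4a cluster on chromosome 19, which encodes membrane-spanning proteins of leukocytes, and all 5 were lower in Th9. In that run Ms4a4b was at -5.34 ± 0.58, Gm8369 at -2.48 ± 0.20, Ms4a6b at -1.95 ± 0.34, Ms4a4c at -1.68 ± 0.31 and Ms4a6c at -1.60 ± 0.17. The calls of Ms4a6b and Ms4a4c held without 1 of the 4 arrays only, with adjusted p of up to 0.132 and 0.176. These runs were chosen after their values were seen.

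Interferon-gamma and the IL-18 receptor gave the largest downward differences among lineage genes. Of 21 tested Th1 cytokines, receptors and factors, none was called higher in Th9 and 7 were lower, against 1.25% and 0.903% of all genes. The list median was -0.55. The differences ran from -5.33 to 2.57, and the block called 1 higher and 7 lower. Ifng was 7.65 and 8.41 in Th9 against 13.21 and 12.94 in Th1 (-5.05 ± 0.48, 33.0-fold, adjusted p = 3.69e-04). Both Th9 values stood above 5.07, so Ifng signal was lower and not at background. Il18r1, the ligand-binding chain for IL-18, was 4.69 and 5.26 in Th9 against 10.30 and 10.30 in Th1 (-5.33 ± 0.20, adjusted p = 1.32e-06), with the Th9 mean at background. Its partner chain Il18rap was 5.57 and 6.03 in Th9 against 7.52 and 7.40 in Th1 (-1.66 ± 0.30, adjusted p = 0.0173). That call held without Th9 replicate 2 and was lost without each of the other 3 arrays (adjusted p up to 0.143). Il1rl2, the IL-36 receptor, is next to Il18r1 in the order of tested genes on chromosome 1 and was chosen after its values were seen. It was also lower (-1.29 ± 0.22, adjusted p = 0.0122, up to 0.112 without 1 array). Twist1, a repressor of inflammatory genes induced in Th1 cells, was named after its values were seen and was lower by -0.93 ± 0.20 with its Th9 mean at background (adjusted p = 0.0439). That call was lost without any 1 array (0.135 to 0.321).

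Unlike Twist1, the factors Tbx21, Stat4 and Eomes were not called under PBAB. Tbx21, which encodes T-bet, was 8.48 and 7.53 in Th9 against 9.87 and 8.52 in Th1. The lowest Th1 array was only slightly above the highest Th9 array, and the difference of -1.19 ± 0.43 had adjusted p = 0.306. Il12rb2, the IL-12 receptor chain typical of Th1 cells, was 6.76 and 7.31 in Th9 against 7.35 and 6.65 in Th1 and overlapped (0.04 ± 0.32, adjusted p = 0.991). Stat4, which carries the IL-12 signal, overlapped with a difference of -0.23 ± 0.25. Cxcr3, a chemokine receptor under T-bet control, was 7.13 and 7.41 in Th9 against 6.84 and 6.76 in Th1 (0.47 ± 0.47, adjusted p = 0.851). Eomes, a relative of T-bet, had -0.55 ± 0.18 (adjusted p = 0.241). Both chains of the interferon-gamma receptor, chosen after their values were seen, were higher in Th9. Ifngr2 was 8.76 and 9.11 in Th9 against 6.71 and 7.01 in Th1 (2.07 ± 0.23, 4.21-fold, adjusted p = 0.00101). Ifngr1 differed by 1.17 ± 0.21 (adjusted p = 0.0186), a call that held without Th9 replicate 1 only and otherwise reached 0.161.

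The inflammatory chemokine ligands that were called were all lower in Th9. Of 15 tested ligands, none was higher and 3 were lower (5 with the block), against 1.25% and 0.903% of all genes. The list median was -0.18. Ccl3, a chemokine that attracts monocytes and T cells, was 6.48 and 7.06 in Th9 against 10.33 and 10.70 in Th1 (-3.74 ± 0.40, 13.4-fold, adjusted p = 9.26e-04). Ccl5 had a difference of -2.14 ± 0.26 (4.40-fold, adjusted p = 0.00163). Ccl4, next to Ccl3 on chromosome 11, had -1.76 ± 0.33 (3.39-fold, adjusted p = 0.0213), and this call was lost without any 1 array (0.102 to 0.149). Xcl1, lymphotactin, had -1.04 ± 0.40 with adjusted p = 0.354, and 0.0102 with the block. Ccl9 had -1.10 ± 0.27 with its Th9 mean at background (adjusted p = 0.0813, and 0.0317 with the block).

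Among 21 chemokine receptors and homing molecules, 3 were higher and 1 lower, against 1.25% and 0.903% of all genes. The block called 4 and 4, against 562 and 299 of 15498. Besides Ccr8 and Ccr4, Itgae, the CD103 integrin chain that holds T cells in epithelium and responds to TGF-beta, was 7.09 and 8.15 in Th9 against 5.83 and 6.06 in Th1 (1.68 ± 0.32, 3.20-fold, adjusted p = 0.0250). That call held without Th9 replicate 1 only and reached 0.185 otherwise. Itga4, the VLA-4 alpha chain, was lower by -1.07 ± 0.22 (adjusted p = 0.0337), a call lost without any 1 array (0.123 to 0.251). S1pr1, the receptor that lets lymphocytes leave lymph nodes, had -1.26 ± 0.30 (adjusted p = 0.0706, and 0.00199 with the block).

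Of 21 tested genes of the TGF-beta response, 4 were higher in Th9 and none was lower, against 1.25% and 0.903% of all genes. The list median was 0.64, and the block called 8 higher, against 562 of 15498 genes. Tgfbr3, the betaglycan coreceptor, was 10.45 and 10.53 in Th9 against 9.15 and 9.13 in Th1 (1.35 ± 0.16, 2.56-fold, adjusted p = 0.00135). Ldlrad4, an inhibitor of SMAD activation, had 1.81 ± 0.34 (3.50-fold, adjusted p = 0.0227) and Tgfbr1, the signalling receptor, 1.21 ± 0.25 (2.31-fold, adjusted p = 0.0375). The call of Ldlrad4 held without Th1 replicate 1 only and that of Tgfbr1 without Th9 replicate 2 only, with adjusted p of up to 0.194 and 0.291 otherwise. Skil, a feedback repressor of SMADs, had 0.92 ± 0.21 (adjusted p = 0.0586, and 0.00416 with the block). Smad7, the inhibitory SMAD, had 8.57 and 8.56 in Th9 against 8.42 and 8.18 in Th1, a difference of 0.27 ± 0.17 that was not called.

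Of 15 tested regulatory T cell genes, 4 were higher in Th9 and none lower, against 1.25% and 0.903% of all genes. The list median was 0.59. Foxp3, the factor that defines those cells, was 6.44 and 5.06 in Th9 against 4.59 and 4.51 in Th1, so 1 Th9 array was at background (1.20 ± 0.43, adjusted p = 0.302). Izumo1r, folate receptor 4, was higher by 1.89 ± 0.23 (3.70-fold, adjusted p = 0.00163). Il10, an anti-inflammatory cytokine of several T cell types, was 7.42 and 8.02 in Th9 against 5.18 and 4.73 in Th1 (2.77 ± 0.61, adjusted p = 0.0469). Ebi3, a subunit of IL-27 and IL-35, had 1.23 ± 0.26 (2.34-fold, adjusted p = 0.0410). The calls of Il10 and Ebi3 were lost without any 1 array, with adjusted p of 0.139 to 0.291 and 0.136 to 0.289, and under 3 other settings each. Nt5e, the CD73 ectoenzyme, had 0.77 ± 0.19 (adjusted p = 0.0890, and 0.00788 with the block). Its 3 probe sets disagreed, since a second one had means of 8.03 in Th9 against 4.71 in Th1, a difference of 3.32, and the third had -0.04. The mean of the 3 was called higher (1.35, adjusted p = 0.00695).

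Of 9 tested Th17 genes, 1 was higher, against 1.25% of all genes. Ahr, the ligand-activated aryl hydrocarbon receptor, was 10.34 and 9.38 in Th9 against 6.83 and 6.53 in Th1 (3.18 ± 0.40, 9.04-fold, adjusted p = 0.00201). Il17a itself overlapped between the groups, at 5.41 and 5.64 in Th9 against 5.42 and 5.73 in Th1, near background. Il6ra, Stat3, Rora and Ccr6 lay between -0.35 and 0.87 and were not called.

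Of 22 other T cell cytokines, 3 were higher and 2 lower in Th9, against 1.25% and 0.903% of all genes. The list median was 0.05. Besides Il10, Ebi3 and Il3, Tnfsf10, the death ligand TRAIL, was 9.79 and 9.92 in Th9 against 7.58 and 7.43 in Th1 (2.35 ± 0.33, 5.09-fold, adjusted p = 0.00422). Il2, the T cell growth factor, was 4.29 and 4.69 in Th9 against 5.90 and 6.31 in Th1 (-1.62 ± 0.27, adjusted p = 0.0126), at background in Th9. Without Th9 replicate 1 its adjusted p was 0.107 and without Th1 replicate 2 it was 0.122. Csf2, which encodes GM-CSF, was 7.76 and 7.11 in Th9 against 8.17 and 8.75 in Th1 (-1.02 ± 0.40, adjusted p = 0.364).

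Costimulatory molecules were lower in Th9 in every called case. Of 16 tested receptors and ligands, none was higher and 4 were lower (7 with the block), against 1.25% and 0.903% of all genes. The list median was -0.55. Cd70, the ligand of CD27, was 5.54 and 4.95 in Th9 against 9.42 and 9.81 in Th1 (-4.37 ± 0.23, 20.7-fold, adjusted p = 9.29e-06). Tnfsf9, the ligand of 4-1BB and a neighbour of Cd70 on chromosome 17, had -1.71 ± 0.29 (3.27-fold, adjusted p = 0.0131). Icos, a receptor of follicular and type 2 help, was 9.40 and 9.32 in Th9 against 11.03 and 10.58 in Th1 (-1.44 ± 0.26, 2.72-fold, adjusted p = 0.0190). Cd80, a ligand of CD28 and CTLA-4, had -1.49 ± 0.32 (2.81-fold, adjusted p = 0.0392). Cd80 lost its call without any 1 array (0.0895 to 0.288). Icos kept it without Th1 replicate 2 only (up to 0.172), and Tnfsf9 without Th1 replicate 1 only (up to 0.125). Cd40lg had -0.69 ± 0.18 (adjusted p = 0.114, and 0.0301 with the block).

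Of 14 inhibitory receptors and ligands, 1 was higher and 1 lower, against 1.25% and 0.903% of all genes. Lair1, a collagen receptor, was 6.04 and 6.34 in Th9 against 4.39 and 4.52 in Th1 (1.73 ± 0.24, adjusted p = 0.00458), with Th1 at background. Btla, a receptor for HVEM, was lower by -1.40 ± 0.24 (2.63-fold, adjusted p = 0.0135). The adjusted p of Lair1 was just over the threshold without Th9 replicate 2 (0.0509) or Th1 replicate 1 (0.0508). That of Btla held without Th9 replicate 1 only and reached 0.134. Ctla4 had 0.61 ± 0.18 (adjusted p = 0.157). Havcr2, which encodes TIM-3, had means below 5.07 in both groups (-1.02 ± 0.32, adjusted p = 0.202, and 0.0370 without Th9 replicate 2). Cd200 had -1.24 ± 0.70 (adjusted p = 0.634), and with the block 0.00189.

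**Figure D4:**
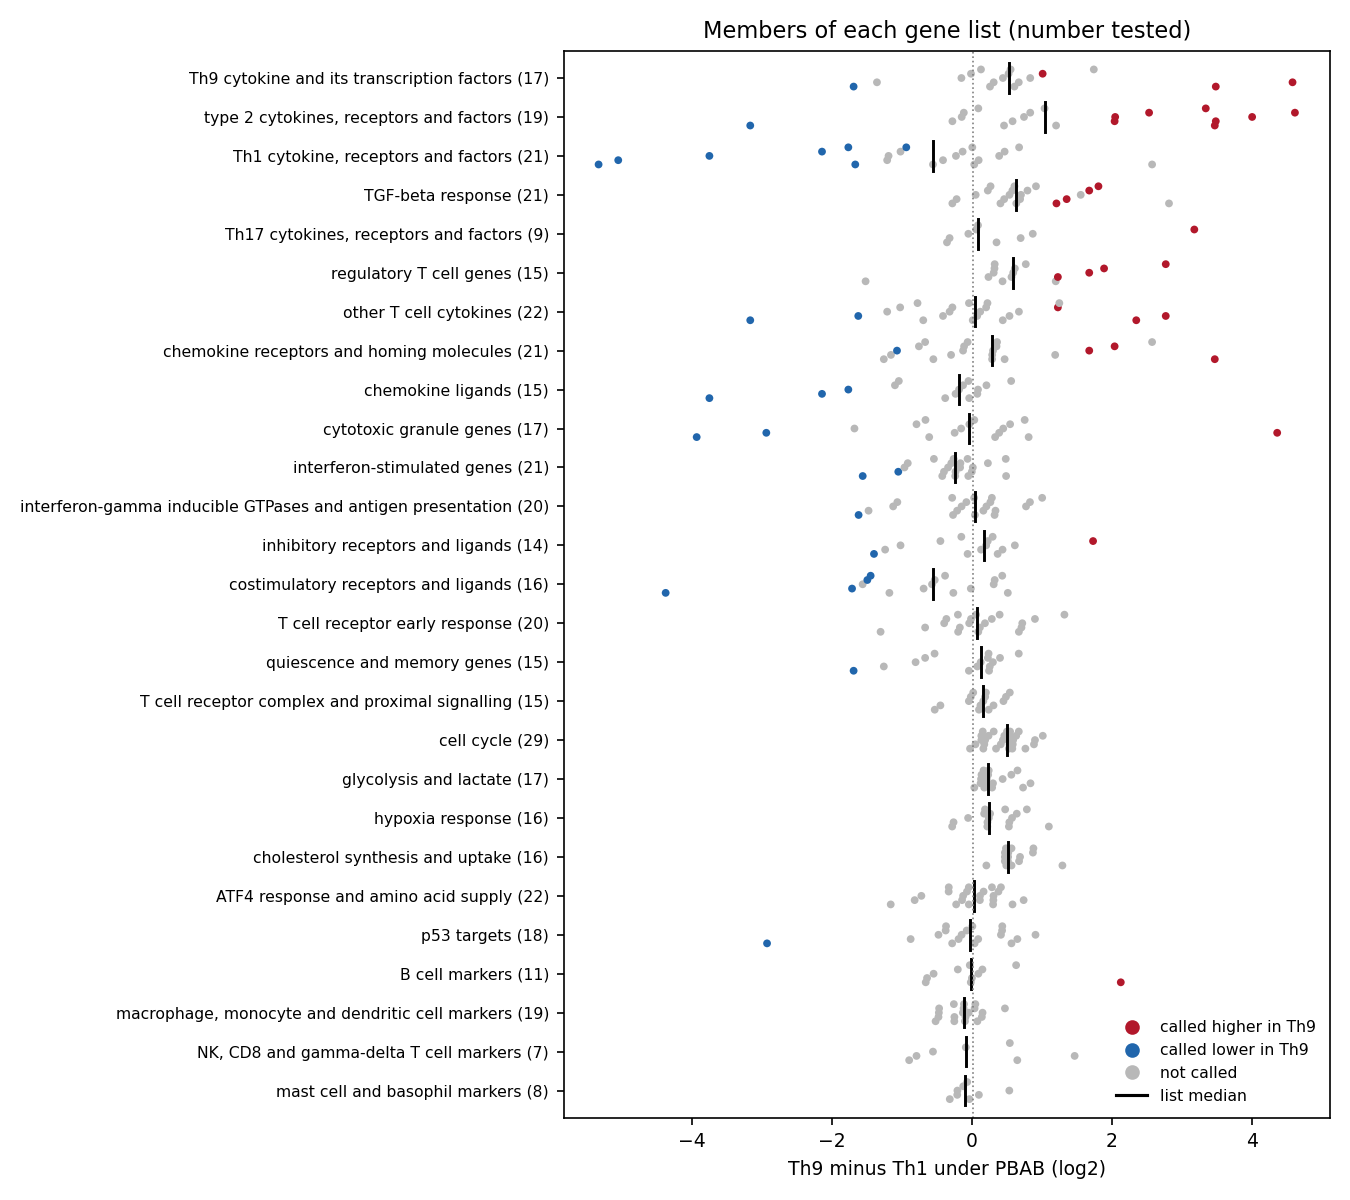
Difference of Th9 minus Th1 under PBAB (log2) for each tested member of 27 gene lists, with the number tested in brackets. Red and blue points are called genes, grey points are not called, black bars are list medians and the dotted line is the median of all genes. For the type 2 list, the bracketed 19 and the bar include a gene that failed the filter, and 18 were tested. The type 2 list holds 8 higher and 1 lower gene, the Th1 list 7 lower genes, and the cell cycle, glycolysis and cholesterol lists sit right of the dotted line with no gene called.

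The cytotoxic granule genes did not move together. Of 17 tested, 1 was higher and 2 were lower in Th9, against 1.25% and 0.903% of all genes. The list median was -0.03. Gzmb, granzyme B, was 12.95 and 13.47 in Th9 against 12.28 and 12.52 in Th1 (0.81 ± 0.81, adjusted p = 0.850). Prf1, perforin, was 6.10 and 6.89 in Th9 against 6.45 and 6.83 in Th1 and overlapped. Gzma, granzyme A, was 9.36 and 12.23 in Th9 against 5.37 and 7.51 in Th1 (4.36 ± 0.91, 20.5-fold, adjusted p = 0.0380). Replicate 2 was the higher array of Gzma in both cultures. The call was lost without Th9 replicate 2 (0.235) or Th1 replicate 1 (0.282), and with quantile normalization repeated (0.0588) or only the 6 PBAB arrays (0.0960) or the 4 arrays compared (0.186). Cd8a moved in the same way, at 6.22 and 8.37 in Th9 against 5.20 and 6.45 in Th1 (1.47 ± 0.92, adjusted p = 0.693, and 0.00170 with the block). Klrk1, Klrd1 and Trgv4 were likewise highest in replicate 2 within each culture. Eomes, of the same marker list, did not follow, at 5.96 and 6.01 in Th9 against 6.57 and 6.51 in Th1. The part of other T or NK cells in the Gzma signal was not tested. Serpinb9, an inhibitor of granzyme B, was 5.96 and 6.71 in Th9 against 10.32 and 10.20 in Th1 (-3.93 ± 0.23, 15.2-fold, adjusted p = 1.40e-05). Serpinb6b, its neighbour on chromosome 13, was 8.70 and 9.57 in Th9 against 11.74 and 12.40 in Th1 (-2.93 ± 0.36, 7.63-fold, adjusted p = 0.00191). Serpinb6a, chosen after its values were seen, was lower by -1.40 ± 0.16 (2.63-fold).

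Most interferon-induced genes were not called, which holds for all tested genes too (2.16% called). Of 21 interferon-stimulated genes, 2 were lower and none higher (4 lower with the block), with a median of -0.24. Oas1a, an antiviral RNA sensor, had -1.56 ± 0.31 (2.94-fold, adjusted p = 0.0297) and Ifit1, which binds foreign RNA, -1.05 ± 0.23 with Th9 at background (adjusted p = 0.0481). Of 20 interferon-gamma-inducible GTPases and antigen presentation genes, 1 was lower (3 with the block, and 1 higher) and the median was 0.04. That gene, the guanylate-binding protein Gbp3, was 6.69 and 6.74 in Th9 against 8.46 and 8.20 in Th1 (-1.62 ± 0.33, 3.06-fold, adjusted p = 0.0332). These 3 calls were lost without any 1 array, with adjusted p of 0.132 to 0.185 for Oas1a, 0.0984 to 0.342 for Ifit1 and 0.129 to 0.236 for Gbp3. Gbp7 had -1.47 ± 0.46, Nlrc5, an activator of MHC class I genes, -1.06 ± 0.28, and Ifi47 0.77 ± 0.27, and these 3 were called with the block (0.00823, 0.0405 and 0.0140), Nlrc5 also with the 6 PBAB arrays alone (0.0332). Ifitm3, an antiviral membrane protein outside both lists, was 7.63 and 6.99 in Th9 against 10.92 and 10.52 in Th1 (-3.41 ± 0.29, 10.6-fold, adjusted p = 1.90e-04).

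The remaining large differences included several genes outside the helper T cell lists. Epas1, the oxygen-regulated factor HIF-2-alpha, was 8.93 and 9.83 in Th9 against 5.53 and 5.59 in Th1 (3.82 ± 0.31, 14.1-fold, adjusted p = 1.55e-04). Efna5, an ephrin ligand, was 8.89 and 9.83 in Th9 against 5.67 and 6.02 in Th1 (3.52 ± 0.33, 11.5-fold). Pros1, protein S, a ligand of the TAM receptors, was 8.76 and 9.81 in Th9 against 5.81 and 6.25 in Th1 (3.25 ± 0.30, 9.53-fold). In each of these 3 genes the lowest Th9 array lay more than 2 units above the highest Th1 array. Akr1c18, a 20-alpha-hydroxysteroid dehydrogenase, was 9.61 and 8.82 in Th9 against 6.35 and 5.99 in Th1 (3.04 ± 0.33, 8.25-fold, adjusted p = 9.60e-04). Cyp11a1, the enzyme that starts steroid synthesis from cholesterol, was chosen after its values were seen and was higher by 2.37 ± 0.30 (5.16-fold, adjusted p = 0.00225). Ppp2r3a, a regulatory subunit of the phosphatase PP2A, had 3.04 ± 0.24 with Th1 at background. Gpm6b, a membrane glycoprotein, had 2.90 ± 0.50 (7.48-fold) and Bend5, a BEN domain protein, 2.77 ± 0.48 (6.82-fold). The call of Gpm6b was lost without any 1 array (0.0510 to 0.125) and that of Bend5 without Th9 replicate 2 (0.138) or Th1 replicate 1 (0.136).

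Downward, Timp1, an inhibitor of metalloproteinases, was 8.87 and 8.16 in Th9 against 13.47 and 12.80 in Th1 (-4.62 ± 0.55, 24.6-fold, adjusted p = 0.00161). Ms4a4b, a membrane protein of T cells, was 4.42 and 5.54 in Th9 against 9.76 and 10.88 in Th1. Replicate 2 of Ms4a4b was higher by the same amount in both cultures, and its adjusted p was 9.46e-04. Serpinb5, maspin, was 4.31 and 5.09 in Th9 against 9.16 and 8.80 in Th1 (-4.28 ± 0.30, adjusted p = 7.10e-05). Ermn, ermin, an actin-binding protein known from oligodendrocytes, was 6.13 and 6.25 in Th9 against 9.67 and 9.53 in Th1 (-3.41 ± 0.28, 10.6-fold). Galnt3, which starts mucin-type O-glycosylation, had -2.95 ± 0.23 (7.71-fold) and Trim66, a chromatin-associated TRIM protein, -2.90 ± 0.36 with Th9 at background. Perp, a membrane protein of the p53 programme, was 7.40 and 7.49 in Th9 against 10.33 and 10.41 in Th1 (-2.92 ± 0.16, 7.58-fold, adjusted p = 9.47e-06). It was the only 1 of 18 tested p53 targets called, with a list median of -0.03, and the block called 2 higher and 2 lower.

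Genes of activation, growth and metabolism showed few calls, and only 2.16% of all tested genes were called. Lists of this size without a call are near that share. None of 20 early T cell receptor response genes was called (1 lower with the block). Their differences ran from -1.30 for Nr4a2 to 1.32 for Egr2, and Egr2 was called with the 6 PBAB arrays alone (adjusted p = 0.0451) and Nr4a2 with the block (0.0406). Of 15 quiescence and memory genes only Id3 was called, lower, and the block called 1 higher and 3 lower. None of 29 cell cycle genes was called, yet 28 of them had a positive difference, with a median of 0.50 and the highest at 1.01. Mcm3, a replication helicase subunit, had 0.89 ± 0.31 (adjusted p = 0.280, and 0.00776 with the block), and the block called 3 of the list higher. All 17 glycolysis genes had positive differences with a median of 0.23, and none was called with or without the block. All 16 cholesterol genes had positive differences with a median of 0.52, none was called, and the block called 4 higher, among them Hsd17b7 (1.29 ± 0.36, adjusted p = 0.131, and 0.0256 with the block) and Dhcr7 (0.87 ± 0.31, adjusted p = 0.296, and 0.0273 with the block). The hypoxia list (16 tested, median 0.25) and the ATF4 list (22 tested, median 0.04) had no call in either fit. Nupr1, a stress-induced cofactor of the ATF4 list, had -1.16 ± 0.38 (adjusted p = 0.229, and 0.0185 with the 6 PBAB arrays alone). Genes of such lists vary together across arrays, so a shared sign is a description of these 4 arrays. The interquartile range of all probe set values was 3.48 and 3.20 in Th9 against 3.30 and 3.02 in Th1. It was thus wider in Th9 within each replicate number, and its part in the shared signs was not tested. Over all tested genes the median difference was 0.02.

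The arrays held T cell RNA throughout. All 15 tested genes of the T cell receptor complex and its proximal signalling had group means above 5.07, none was called, the block called Skap1, an adaptor protein, higher (0.54, adjusted p = 0.0317), and the summed linear level of the list was 40941 to 41488 in Th9 against 35233 to 40483 in Th1. Of 20 macrophage, monocyte and dendritic markers, 10 had a mean above 5.07 in Th9 and 8 in Th1, and none of 19 tested was called. Their summed level was 2420 to 2763 in Th9 against 3069 to 3783 in Th1, without overlap. Their medians overlapped, at 4.91 to 5.01 in Th9 against 4.90 to 5.16 in Th1. The block called 1 of these markers lower, Ctss, cathepsin S (-0.52, adjusted p = 0.298, and 0.0340 with the block). Of 11 B cell markers, Cd79b, a signalling chain of the B cell receptor, was called higher, at 7.63 and 7.76 in Th9 against 5.51 and 5.63 in Th1 (2.13 ± 0.19, 4.37-fold, adjusted p = 2.86e-04). The other 10 tested B cell markers were not called and ran from -0.66 for Vpreb3 to 0.63 for Ighm. The summed level of the B cell list was 1161 to 1375 in Th9 against 844 to 913 in Th1, without overlap. Such a linear sum rests mostly on the highest genes, here Ighm, with means of 9.62 in Th9 against 8.98 in Th1. The medians of the list overlapped, at 5.00 to 5.35 in Th9 against 5.26 to 5.48 in Th1. Of the NK, CD8 and gamma-delta markers none of 7 tested was called, with summed levels of 444 to 1344 in Th9 against 751 to 1068 in Th1. Mast cell and basophil markers were mostly near background, with 3 of 11 means above 5.07 in each group. For Kit, the probe set used had means of 5.75 in Th9 against 5.21 in Th1, and another had 6.36 against 4.84. The 2 arrays of a group correlated at 0.985 in Th9 and 0.985 in Th1, against 0.968 to 0.982 between the groups. The bioB control, which is added during hybridisation, was 9.52 and 10.70 in Th9 against 9.52 and 11.05 in Th1, so it moved with the replicate number and not with the culture.

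Under HA, where splenocytes presented the antigen and the HEL dose differed between the cultures, 827 genes were called (5.34%), 296 higher and 531 lower in Th9. The PBAB and HA comparisons share no array. Of the 334 genes called under PBAB, 274 had the same sign under HA (82.0%) and 146 were called in the same direction, which is 43.7% of the PBAB calls and 17.7% of the HA calls. Another 10 were called in the opposite direction. The same-sign share over all tested genes was not computed, so the 82.0% has no background share beside it. The test of the difference between the 2 comparisons called 212 genes (1.37%), and 66 of these were among the 334.

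The type 2 and Th1 cytokines held under both activations, with exceptions in size. Il4 differed by 3.41 under HA and Ifng by -5.27, and for neither was the difference between activations called (adjusted p = 0.404 and 0.955). Il5 differed by 1.46 under HA against 4.61 under PBAB and Maf by 1.45 against 4.58, and both gaps were called (adjusted p = 0.00204 and 0.00341). Maf under HA was 10.85 and 10.59 in Th9 against 9.51 and 9.03 in Th1, so the Th1 cultures carried most of the gap from the PBAB values. Il5 under HA was 5.37 and 5.20 in Th9 against 3.89 and 3.77 in Th1, so there the Th9 cultures carried it. Rad50 differed by 0.63 under HA, and its gap was called too (adjusted p = 0.0354). Tbx21 and Il12rb2, uncalled under PBAB, were lower in Th9 under HA by -4.02 and -3.25. The gap between activations was called for Il12rb2 (3.28, adjusted p = 0.00693) and missed the threshold for Tbx21 (adjusted p = 0.0524, and 0.0153 with the block). Under HA, Tbx21 was 6.27 and 6.71 in Th9 against 10.66 and 10.36 in Th1, and Il12rb2 was 4.75 and 4.42 in Th9 against 8.12 and 7.53 in Th1.

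The reverse was seen for Cd70, Il3 and Timp1, which were called under PBAB and not under HA. Under HA, Cd70 was 5.09 and 4.69 in Th9 against 5.63 and 5.44 in Th1. Il3 was 3.52 and 3.77 in Th9 against 4.22 and 3.59 in Th1, and Timp1 was 6.57 and 7.04 in Th9 against 7.61 and 5.60 in Th1. The 3 differences of -0.64, -0.26 and 0.20 had adjusted p of 0.184, 0.757 and 0.945. The gap between activations was called for each (adjusted p = 8.02e-04, 0.00351 and 0.0143). Itgae was higher in Th9 under both, by 1.68 under PBAB and 5.32 under HA (adjusted p of the gap = 0.00418). Macrophage and dendritic markers differed between the cultures under HA, with 16 of 20 group means above 5.07 and a summed level of 4647 to 4955 in Th9 against 12 of 20 and 2376 to 2568 in Th1. Their part in the HA differences was not tested, and under PBAB the summed level was lower in Th9, as given above.

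**Figure D5:**
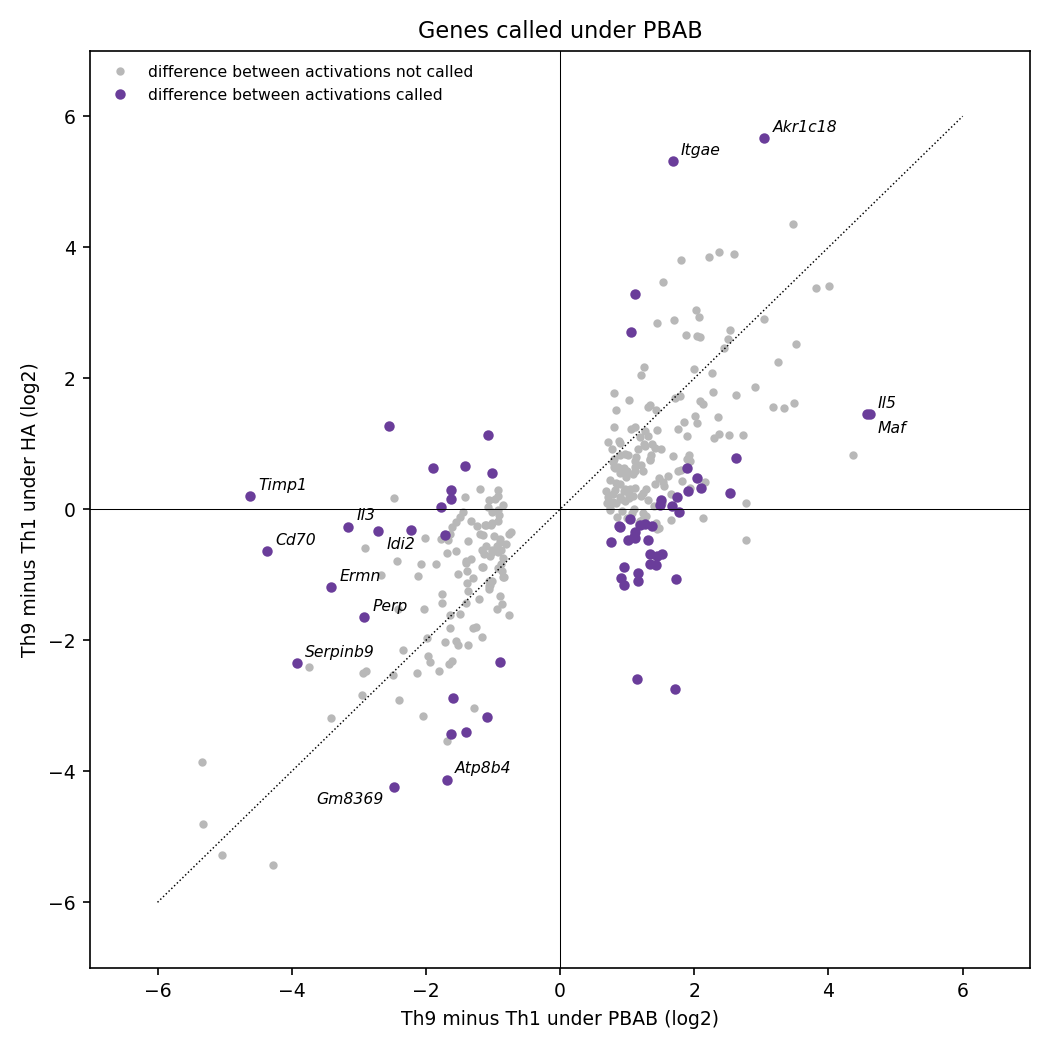
Difference of Th9 minus Th1 (log2) under PBAB against that under HA for the 334 genes called under PBAB. Purple points are the 66 genes whose difference between activations was called, and the dotted line marks equal differences. Most points share their sign, Il5 and Maf lie below the line, and Cd70, Il3 and Timp1 lie near 0 under HA.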

How the data were processed

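Expression was measured on a mouse whole-genome array in 15 samples, 2 in each culture and activation and 1 per culture of antigen-presenting cells alone. The authors deposited log2 values per probe set, made with RMA per the submitters' processing notes; its version was not given in the sources used here. Of 45101 probe sets, 34958 have 1 gene symbol in GEO's platform annotation, 932 several and 9211 none. From these, 1 probe set was taken for each of 18194 symbols, the one with the highest mean over 15 arrays, and 15498 were tested because they exceeded 5.07, the 40th percentile, in at least 2 arrays. Of 161 named genes, 74 have several probe sets, and none had a second one with an opposed call. Intensities limit the precision through the number of arrays.

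limma 3.58.1 in R 4.3.3 fitted 1 mean per group to all 15 arrays (residual df 6, prior df 4.38) with Benjamini-Hochberg adjustment, and was tested on simulated data. Th9 minus Th1 was tested under PBAB, under HA and as the difference between them. Pairing by replicate number was checked from deviations about group means, which correlated at 0.296 to 0.708 in all 15 pairs of activated groups, so that number was also used as a block. Scan and slide were not used here. Of 513 list entries in 27 lists, 471 were matched by symbol. Genes were named as the 15 largest called differences each way without overlap, fixed lineage genes, up to 5 members of each list by p, and the 5 largest differences each way between activations. Members and lists were chosen with earlier results of these data known. Promoters came from RefSeq (GRCm38.p6), and gene order was placed for 15377 genes. Alternatives covered filters, probe set choice, normalization, arrays in the fit, array weights, the block and each array left out.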

Additional observations from a re-analysis of the deposited data

Results flagged for a closer look

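For 29 named genes the Th9 minus Th1 difference differed between the activations by the test of that difference itself, given here as PBAB minus HA on the log2 scale. No cause was tested. The HA cultures also contained splenocytes, and the summed level of macrophage and dendritic markers there was 4647 to 4955 in Th9 against 2376 to 2568 in Th1.

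Some gaps came with a larger difference under PBAB. They were 3.15 for Il5, 3.13 for Maf, -3.73 for Cd70, -2.90 for Il3, -4.82 for Timp1, -1.91 for Il2, -2.22 for Ermn, -1.28 for Perp and -1.58 for Serpinb9. The adjusted p of these genes ran from 8.02e-04 for Cd70 to 0.0461 for Serpinb9.

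Other gaps came with a larger difference under HA, where the gene was lower in Th9. Bst1, an ectoenzyme that makes cyclic ADP-ribose, had 4.85, with 4.06 and 4.16 in Th9 HA against 8.98 and 8.10 in Th1 HA. Anxa1, the anti-inflammatory annexin, had 4.24, with 6.53 and 6.53 in Th9 HA against 11.32 and 12.11 in Th1 HA. Ifi202b, a DNA-binding interferon-inducible protein, had 4.18, Itih5 4.13, Il12rb2 3.28, Havcr2 2.48, Prf1 2.45 and Btla 2.01. Anxa1 and Ifi202b differed by -0.94 and 0.18 under PBAB, and neither was called there.

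In a further set the gene was higher in Th9 under HA. Chil3, a chitinase-like protein of macrophages, had -5.88, with 9.11 and 9.07 in Th9 HA against 2.89 and 3.13 in Th1 HA, and means below 5.07 in both PBAB cultures. Tiam1, a guanine nucleotide exchange factor for Rac, had -4.65, Cdh1, E-cadherin, -4.11, Penk, proenkephalin, -4.07, Itgae -3.64, Ccl9 -3.56, Akr1c18 -2.62, the macrophage marker Mpeg1 -1.79 and Eomes -1.34.

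For 3 genes both comparisons were called with opposite signs. Emilin2, an extracellular matrix protein, had a gap of 4.45, at 1.71 under PBAB and -2.74 under HA, and its PBAB call was lost without any 1 array (adjusted p 0.0921 to 0.167). Lair1 had 2.80, at 1.73 and -1.07, and Itga4 -2.20, at -1.07 and 1.13.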

How the results depend on the processing

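The 334 calls under PBAB were 301 to 342 with no filter, a filter on the 4 arrays, the mean of all probe sets, quantile normalization repeated, centred arrays, the 12 activated arrays, the 6 PBAB arrays or array weights. The split of 194 higher and 140 lower became 166 and 163 with quantile normalization repeated, and 194 and 120 with centred arrays. The 334 calls were 162 with the 4 arrays alone and 123 to 154 without 1 array, and 861 with the replicate number as a block. The 827 calls under HA, whose alternatives were chosen after seeing the data, were 1863 with the block and 474 (without Th9 HA replicate 2) to 581 (without Th1 HA replicate 1) without 1 array. The 212 genes whose difference differed between activations were 739 with the block and 100 (without Th9 PBAB replicate 2 or Th1 PBAB replicate 1) to 204 (without Th1 HA replicate 1) without 1 array. The block lost none of the 56 named calls, added 27 of 105 uncalled ones and changed no other call.

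No named call changed sign. With the 4 arrays alone 10 of the 56 were lost, Batf, Btla, Cd80, Ebi3, Gzma, Ifit1, Itga4, Itgae, Ldlrad4 and Tgfbr1 (adjusted p 0.0506 to 0.186). Other calls lost with all replicates kept were Tgfbr1, Itga4, Icos and Il10 with the mean of all probe sets (0.293, 0.143, 0.0580 and 0.0560), Tgfbr1, Gzma and Id3 with quantile normalization (0.0676, 0.0588 and 0.0545), Batf, Ebi3, Ifit1 and Il10 with centred arrays (0.0521 to 0.0633), Tgfbr1, Gzma, Itgae and Ebi3 with 6 PBAB arrays (0.0531 to 0.0960), and Il10 with no filter (0.05004). Beyond those the report names, calls were gained by Skil and Mcm3 with the mean of probe sets (0.00438 and 0.0204), Skil, S1pr1 and Ifih1 with quantile normalization (0.0435, 0.0228 and 0.0208), Il4ra with 6 PBAB arrays (0.0274), Nt5e with centred arrays (0.0494) and Nupr1 with 4 arrays (0.0430).

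Signs turned only in genes that were not called. Egr3 was 0.094 with the mean of probe sets, Il12rb2 -0.0029 and Penk -0.035 with quantile normalization, and Irf4 0.022 with centred arrays. Leaving out 1 array gave ranges of -0.021 to 1.17 for Ankrd37, -0.17 to 1.00 for Bst1, -0.29 to 0.11 for Cdh1, -0.0033 to 0.41 for Chil3, -0.95 to 0.0057 for Csf1r, -0.31 to 0.38 for Il12rb2, -0.20 to 0.10 for Il17a, -0.15 to 0.13 for Irf4, -1.95 to 0.37 for Klrd1 and -1.93 to 0.15 for Klrk1. They were -0.036 to 0.24 for Mcpt4, -0.32 to 0.47 for Penk, -0.55 to 0.24 for Prf1, -0.079 to 0.34 for Spi1, -0.45 to 0.21 for Tpsb2, -0.34 to 1.63 for Trgv4 and -1.21 to 0.26 for Tyrobp. The causes were not tested.

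The main limits are 2 arrays per group, calls that rest on a spread shared with other groups, and signal near background, where sizes are uncertain.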

Other observations

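Several called genes outside the lists, chosen after their values were seen, describe the Th9 PBAB cultures further. Asb2, a subunit of a ubiquitin ligase linked to type 2 helper cells, was 9.37 and 9.21 in Th9 against 6.73 and 6.60 in Th1 (2.62 ± 0.25, 6.16-fold, adjusted p = 3.82e-04). Ikzf3, the lymphoid factor Aiolos, was 10.26 and 10.55 in Th9 against 8.32 and 8.62 in Th1 (1.93 ± 0.24, 3.81-fold, adjusted p = 0.00197). The neighbouring membrane channels Tmem176b and Tmem176a were higher by 2.03 ± 0.33 and 1.70 ± 0.26, with adjusted p of up to 0.0763 and 0.0715 without 1 array. H2-DMa and H2-DMb2, subunits of the peptide exchanger of MHC class II, were higher by 1.27 ± 0.22 and 1.12 ± 0.17, with adjusted p of up to 0.135 and 0.0742 without 1 array. Akr1c13, next to Akr1c18 on chromosome 13, was higher by 2.26 ± 0.40, and its adjusted p reached 0.153 without Th1 replicate 2 and 0.126 without Th9 replicate 1.

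Fgf2, fibroblast growth factor 2, and Nudt6, its overlapping antisense neighbour, were both called higher in Th9, by 1.80 ± 0.21 and 1.31 ± 0.27, and the call of Nudt6 was lost without any 1 array. In 3 neighbours on chromosome 7, Kctd14 was higher by 2.44 ± 0.28, Ints4, an Integrator subunit, by 1.54 ± 0.18 and Aamdc by 1.27 ± 0.21, and the call of Aamdc was lost without any 1 array. Under HA the 3 differences were 2.47, 0.41 and 0.31.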
